A study of Mus musculus with 8 samples.

Results

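Excitatory pyramidal neurons of the cortex are stacked in layers, and each layer can be told from the others by the genes its neurons express. Upper-layer neurons (layers 2 to 4) connect mainly within the cortex, layer 5 neurons include those that project to the brainstem and spinal cord, and layer 6 neurons include those that project to the thalamus. A further set of genes, among them the vesicular glutamate transporter *Slc17a7* and the transcription factors of the Neurod family, is used by pyramidal neurons of all layers. Here 42 such genes were followed in the prefrontal cortex (PFC) of mice that overexpressed Rnf146, a ubiquitin ligase that acts on the Wnt/β-catenin pathway. The 42 genes were chosen by name as markers of cortical excitatory neurons and their layers, with earlier results of these data known. All 42 were among the 15039 genes of the table. They were divided into 9 upper-layer genes, 21 deep-layer genes (11 of layer 5 and 10 of layer 6) and 12 broad pyramidal genes. The broad list also holds *Slc17a6*, a transporter gene of subcortical glutamatergic neurons.

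The wild-type mice were males of the C57BL/6NCrljOri strain. At the age of 6 weeks they received an adeno-associated virus (AAV2/1) bilaterally in the PFC, either for mouse Rnf146 together with eGFP (n = 4) or for eGFP alone (n = 4), and the PFC was dissected 4 weeks later for total RNA and stranded mRNA libraries, which were to show whether Rnf146 overexpression alters transcription there. According to the methods, the sequenced Rnf146 mice had been picked for detectable overexpression and a social deficit. In both groups the human synapsin promoter (hsyn) restricts the transgene to neurons, so pyramidal neurons are among the cells that can carry it, but each library is bulk tissue of all its cell types. *Rnf146* itself lay between 10.35 and 10.50 in the 4 eGFP libraries and between 13.01 and 13.17 in the 4 Rnf146 libraries. The values are on a log2 scale and run from 7.86 to 18.8 over the table. Whether they correct for transcript length is unknown, so levels of different genes are not compared.

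Within each gene, the sum of the 2 libraries that share a replicate number is identical for the 4 numbers. The values therefore hold a gene's mean and 4 pair differences, which are given below as Rnf146 minus eGFP. Differences were fitted by limma, blocking on replicate number, and a gene was called where its p, adjusted over all 15039 genes, was at most 0.1. In such centred values the eGFP and Rnf146 libraries of a gene do not overlap whenever its 4 pairs share a direction. That was so for 10.2% of all genes as lower and 10.4% as higher. Whether the libraries overlapped before the centring is unknown. An exact sign-flip permutation test of a single value over 4 pairs cannot go below p = 0.125. *Slc17a7* lay between 14.57 and 14.997 over the libraries. All 42 genes had a value in every library, but so had every gene of the table, and a value alone does not show expression. The lowest mean of the 42 was 8.64 for *Scnn1a*, where the lowest value of the table was 7.86.

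Of the broad pyramidal genes 3 fell and 1 gene of the upper-layer list rose in Rnf146-overexpressing mice. *Slc17a7*, *Slc30a3* and *Neurod2* fell by 0.30, 0.36 and 0.30 on the log2 scale, and *Whrn* rose by 0.38. The test called 0 of the 21 deep-layer genes, 7 of which had an unadjusted p under 0.05 in limma. Such a p was found for 18 of the 42 genes (42.9%) and for 12.4% of all genes. The 4 called genes are 9.52% of the 42, against 1.25% of all genes called, with 0.432% called lower and 0.818% called higher. Because the 42 were chosen with earlier results of these data known, these shares are descriptions and not tests. The average difference was -0.023 ± 0.12 for the upper-layer genes, -0.017 ± 0.058 for the deep-layer genes and -0.13 ± 0.066 for the broad pyramidal genes (SD, n = 4 pairs). The calls changed with single pairs left out. The directions of the 4 called genes could not change, because the 4 pairs of each share a direction. Without pair 2 or without pair 4, limma called 0 of the 42 genes, of which 11 and 10 had an unadjusted p under 0.05. Calls over all genes fell as well, from 188 with all pairs to 42 without pair 2 and 14 without pair 4. Without pair 4, *Slc17a7*, *Slc30a3*, *Neurod2* and *Whrn* differed by -0.33, -0.38, -0.33 and 0.34. Without pair 2 they differed by -0.26, -0.27, -0.26 and 0.41. Without pair 1, limma called neither *Slc17a7* nor *Slc30a3* (adjusted p of 0.111 and 0.115).

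**Figure D1:**
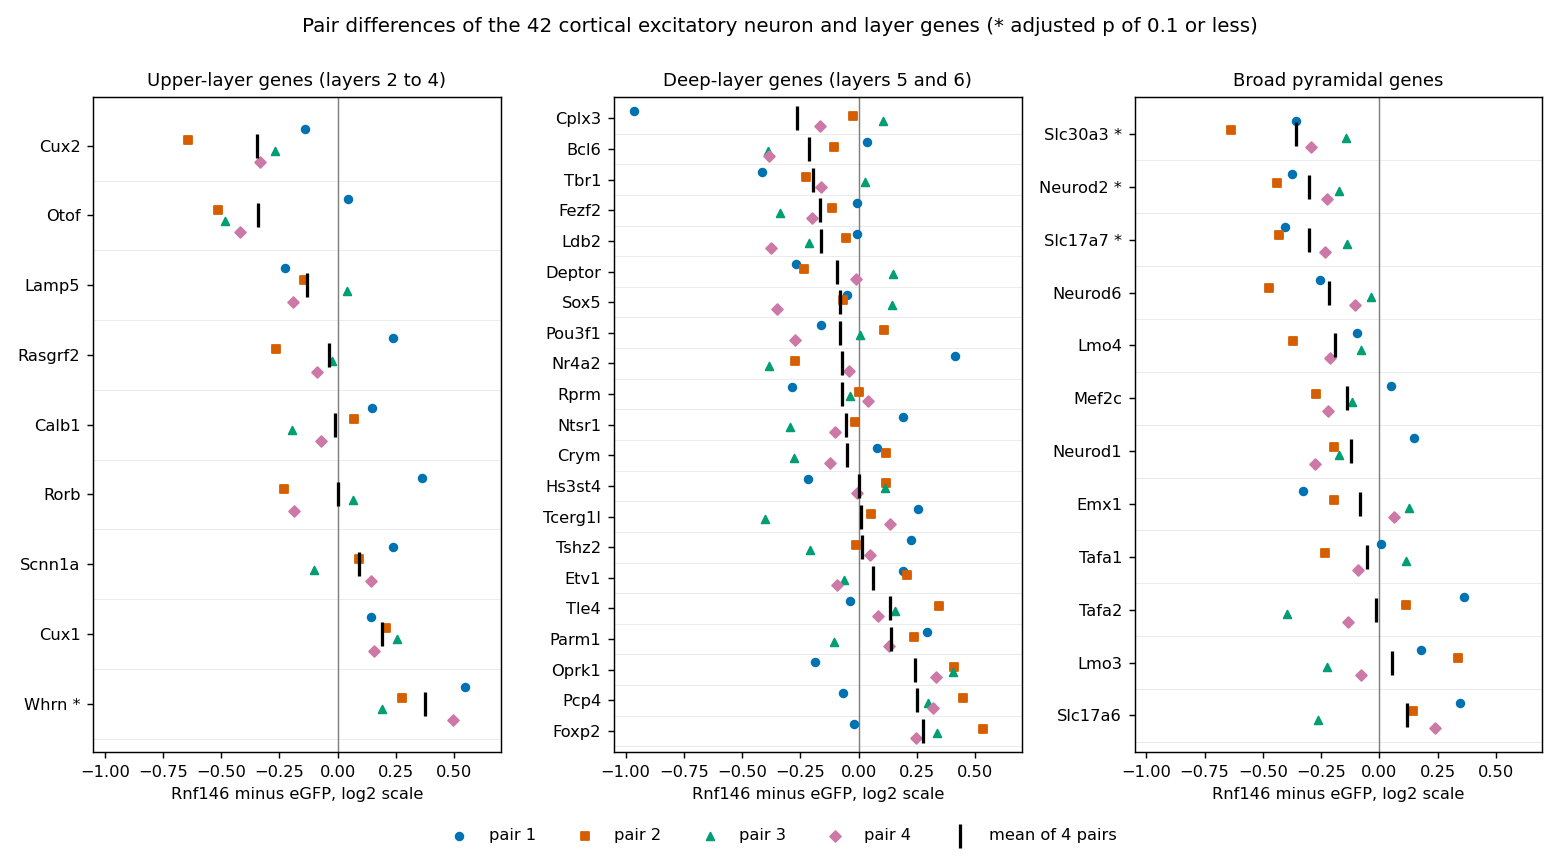
Differences between the Rnf146 and eGFP libraries of each pair (x axis, log2 scale) for the 42 genes (y axis), in 3 panels for the upper-layer, deep-layer and broad pyramidal genes, each sorted by its mean. Coloured symbols are the 4 pairs, black bars their means and asterisks the 4 genes with an adjusted p of 0.1 or less. Most broad pyramidal genes lie left of 0, while upper- and deep-layer genes lie on both sides, from -0.35 to 0.38 and from -0.26 to 0.28.

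The promoters of *Neurod2* and *Slc17a7*, each with a single annotated start, are shown because both genes fell and because NeuroD factors are known to bind E-boxes, the motif CANNTG. They are the 250 bases before the start in RefSeq (GRCm38.p6, a build older than the GRCm39 of the expression values), 5′ to 3′ on the gene's strand, with E-boxes in capitals. *Neurod2* is at chr11:98329646-98329895 on the minus strand and *Slc17a7* at chr7:45163671-45163920 on the plus strand.

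Neurod2: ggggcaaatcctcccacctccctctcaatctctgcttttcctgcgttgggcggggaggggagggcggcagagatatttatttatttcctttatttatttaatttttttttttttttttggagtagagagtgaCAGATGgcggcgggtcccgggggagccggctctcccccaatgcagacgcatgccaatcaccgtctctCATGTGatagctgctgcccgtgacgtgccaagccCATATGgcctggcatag
Slc17a7: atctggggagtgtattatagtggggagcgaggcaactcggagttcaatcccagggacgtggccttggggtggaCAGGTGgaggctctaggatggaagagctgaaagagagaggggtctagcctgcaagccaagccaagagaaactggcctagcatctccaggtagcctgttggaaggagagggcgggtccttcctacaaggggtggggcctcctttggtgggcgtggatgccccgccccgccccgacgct

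The *Neurod2* promoter held 3 E-boxes, CAGATG at 118, CATGTG at 51 and CATATG at 17 bases before the start. *Slc17a7* had 1, CAGGTG at 177 bases before the start, and the windows of *Slc30a3* (2 annotated starts) and *Whrn* had 0. Over 32851 promoters of the same length, searched on both strands, 66.2% held at least 1 E-box and 12.2% held 3 or more. CAGATG occurred in 14.4%, CATGTG in 12.3%, CATATG in 3.46% and CAGGTG in 17.2% of the promoters, and each of these words is part of the E-box count. Of the 42 genes, 33 had a promoter entry.

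*Slc17a7* encodes VGLUT1, which loads glutamate into synaptic vesicles at most cortical synapses (chromosome 7 of GRCm39, 44813305 to 44825644, plus strand). Its values were 14.99, 14.997, 14.85 and 14.90 in eGFP libraries 1 to 4 and 14.58, 14.57, 14.71 and 14.67 in Rnf146 libraries 1 to 4. Every Rnf146 library lay below every eGFP library, which follows from 4 pair differences of one direction. The difference was -0.30 ± 0.14 (SD, n = 4 pairs), its SE 0.062 and its adjusted p from limma 0.092. *Slc17a6* encodes VGLUT2, the transporter of thalamic and other subcortical glutamatergic neurons, and its pair differences of 0.35, 0.15, -0.26 and 0.24 had no common direction. Between the 2 transporters, the change of *Slc17a6* exceeded that of *Slc17a7* by 0.42 ± 0.38 and had one direction in pairs 1, 2 and 4 and the other in pair 3 (-0.12). This contrast was chosen after its values were seen and was not tested.

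*Slc30a3* encodes ZnT3, the transporter that fills glutamatergic vesicles with zinc (chromosome 5 of GRCm39, 31241914 to 31265581, minus strand). It was measured at 11.25, 11.39, 11.14 and 11.22 in the eGFP libraries and at 10.89, 10.75, 11.002 and 10.93 in the Rnf146 libraries, in the order of the replicate numbers. The groups did not overlap, and pair 2 had the widest gap. The mean difference was -0.36 ± 0.21 (SD, n = 4 pairs; SE 0.075) with an adjusted p of 0.095 from limma, the weakest of the 4 calls. It was not called after quantile normalization or with untrended variances (adjusted p of 0.111 and 0.101 from limma).

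*Neurod2* encodes a basic helix-loop-helix transcription factor of postmitotic excitatory neurons (chromosome 11 of GRCm39, 98216241 to 98220480, minus strand). The eGFP libraries gave 11.35, 11.38, 11.24 and 11.27 and the Rnf146 libraries 10.97, 10.94, 11.07 and 11.05. Again all Rnf146 libraries were below all eGFP libraries. The difference was -0.30 ± 0.13 (SD, n = 4 pairs; SE 0.056; adjusted p of 0.069 from limma). *Neurod6*, a related factor of the same neurons, was lower in all 4 pairs as well, at -0.26, -0.48, -0.037 and -0.10, but its mean of -0.22 ± 0.19 did not pass the test (adjusted p of 0.265 from limma). *Neurod1* differed by 0.15, -0.19, -0.17 and -0.28, and its mean of -0.12 ± 0.19 did not exceed its SD.

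*Whrn* encodes whirlin, a scaffold protein best known from the stereocilia of hair cells, and stands here among the layer 4 genes (chromosome 4 of GRCm39, 63333143 to 63414333, minus strand). Its values were 10.27, 10.40, 10.45 and 10.29 in the eGFP libraries and 10.81, 10.68, 10.63 and 10.79 in the Rnf146 libraries. All Rnf146 libraries were above all eGFP libraries. The difference was 0.38 ± 0.17 (SD, n = 4 pairs; SE 0.067) with an adjusted p of 0.063 from limma. It was widest in pairs 1 and 4, at 0.55 and 0.50, and was 0.27 and 0.19 in pairs 2 and 3. The other layer 4 genes were not called. *Rorb*, a nuclear receptor of layer 4, had a difference of 0.0019 ± 0.27 and *Scnn1a*, a sodium channel subunit of layer 4, one of 0.091 ± 0.14, the latter at values near the low end of the table.

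**Figure D2:**
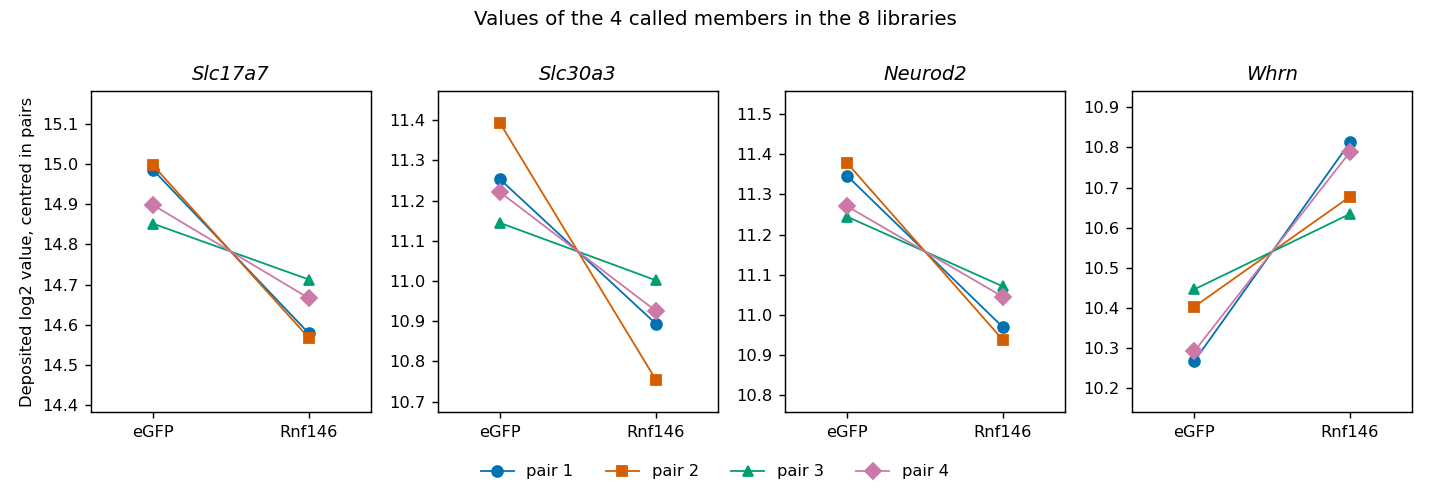
Deposited log2 values (y axis, each panel spanning the same range around its gene's mean) of the 4 called genes in the eGFP and Rnf146 libraries (x axis). Lines join the libraries of a pair, and they cross at the mean because the values are centred within pairs. In *Slc17a7*, *Slc30a3* and *Neurod2* every Rnf146 library lies below every eGFP library, and in *Whrn* every Rnf146 library lies above.

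Among the broad pyramidal genes, 10 of 12 had a mean below 0, against 49.5% of all genes. Of the 12, 5 (41.7%) were lower in all 4 pairs and 0 were higher in all 4, against 10.2% and 10.4% of all genes. The median of the 12 gene means was -0.13, and it was 0.00086 over all genes. Their list average was -0.060, -0.22, -0.13 and -0.13 in pairs 1 to 4. Besides the 3 called genes and *Neurod6*, *Lmo4*, a LIM-domain cofactor of projection neurons, was lower in all 4 pairs (-0.19 ± 0.14, adjusted p of 0.231 from limma). *Mef2c*, an activity-regulated transcription factor, had -0.14 ± 0.14, and *Emx1*, a homeobox gene of the dorsal telencephalon, had -0.083 ± 0.21. The differences of *Lmo3* and of *Tafa1* and *Tafa2*, which encode secreted proteins, were 0.053 ± 0.25, -0.051 ± 0.15 and -0.013 ± 0.33, all smaller than the spread between the pairs. The list was also limited to the 6 genes not marked as expressed in other cells too (*Neurod1*, *Neurod2*, *Neurod6*, *Emx1*, *Slc17a7* and *Slc30a3*). This mark was assigned by gene name and not measured here. The 6 genes include the 3 called ones, and their average was -0.23 ± 0.13. Under the same limit the upper-layer average was -0.012 ± 0.14, the deep-layer average -0.041 ± 0.047 and deep minus upper -0.029 ± 0.15.

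The upper-layer genes had no common direction. The list average was 0.15, -0.13, -0.059 and -0.055 in pairs 1 to 4, and 5 of the 9 genes had a mean below 0. *Cux1* and *Cux2*, a pair of related homeobox genes of upper-layer neurons, took opposite directions in all 4 pairs. The values of *Cux1* were 10.60, 10.57, 10.55 and 10.60 in the eGFP libraries and 10.74, 10.78, 10.80 and 10.75 in the Rnf146 libraries. Those of *Cux2* were 11.08, 11.33, 11.14 and 11.17 against 10.94, 10.69, 10.87 and 10.84. For each gene the groups did not overlap. The difference was 0.19 ± 0.051 for *Cux1* and -0.35 ± 0.21 for *Cux2* (SD, n = 4 pairs), and neither passed the test, with adjusted p-values of 0.139 and 0.113 from limma. The difference of *Cux1* exceeded that of *Cux2* by 0.28 to 0.85 in the 4 pairs, a contrast chosen after its values were seen and not tested. Without pair 1, *Cux2* was called, at -0.42 (adjusted p of 0.050 from limma).

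*Otof*, which encodes otoferlin and marks layer 2/3 neurons, had differences of 0.043, -0.52, -0.48 and -0.42, with a mean of -0.34 ± 0.26 (adjusted p of 0.166 from limma). Pair 1 thus stood against the other 3, and without it *Otof* was called at -0.47 with an adjusted p of 0.012. *Lamp5*, a lysosome-associated membrane protein of layer 2/3 and of a class of interneurons, had -0.13 ± 0.12. *Rasgrf2*, a Ras exchange factor of layer 2/3, had -0.036 ± 0.21, and *Calb1*, the calcium buffer calbindin, had -0.012 ± 0.15. In both, the spread between the pairs was larger than the mean. The medial PFC of mice has no distinct layer 4, which limits *Rorb*, *Scnn1a* and *Whrn* as layer markers in this tissue.

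Of the 21 deep-layer genes, 12 (57.1%) had a mean below 0, against 49.5% of all genes. Lower in all 4 pairs were 2 (9.52%) and higher in all 4 were 0, against 10.2% and 10.4% of all genes. The 21 means ran from -0.26 to 0.28 around a median of -0.055. In layer 5, *Fezf2*, the selector gene of subcerebral projection neurons, was at -0.0046, -0.11, -0.34 and -0.20, and *Ldb2*, a LIM-domain binding protein of the same neurons, was at -0.0053, -0.054, -0.21 and -0.38. Both were lower in all 4 pairs, by almost nothing in pair 1, and had adjusted p-values of 0.313 and 0.362 from limma. *Bcl6*, a transcriptional repressor, had 0.036, -0.11, -0.39 and -0.38. Beside these, *Pcp4*, a calmodulin regulator, was higher in pairs 2 to 4, with -0.068, 0.45, 0.30 and 0.32 from pair 1 to pair 4 (mean 0.25 ± 0.22, adjusted p of 0.242). The other layer 5 genes had means between -0.092 for *Deptor*, an inhibitor of mTOR, and 0.14 for *Parm1*. *Etv1*, *Pou3f1*, *Crym*, *Tshz2* and *Tcerg1l* lay between these, and each of the 7 genes had a mean smaller than its spread between pairs.

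In layer 6, *Foxp2*, a forkhead transcription factor of corticothalamic neurons, had differences of -0.018, 0.54, 0.34 and 0.25, and *Oprk1*, the kappa opioid receptor, had -0.19, 0.41, 0.41 and 0.33. *Tle4*, a Groucho corepressor of corticothalamic neurons, had -0.038, 0.35, 0.16 and 0.084. All 3 were higher in pairs 2 to 4 and lower in pair 1, and none passed the test (adjusted p of 0.220, 0.357 and 0.433 from limma). Without pair 1, *Foxp2*, *Oprk1* and *Pcp4* were called by limma, at 0.37, 0.38 and 0.35 with adjusted p-values of 0.047, 0.024 and 0.028. Without that pair 421 of all genes were called, against 188 with all pairs. A list of striatal projection neuron genes, given below, averaged -0.11 in pair 1 and 1.20, 0.63 and 0.23 in pairs 2 to 4. The part of striatal cells in the differences of these genes was not tested. *Tbr1*, a T-box factor that specifies corticothalamic identity, had -0.42, -0.23, 0.028 and -0.16, a mean of -0.19 ± 0.18. *Cplx3*, a complexin of layer 6b (the deepest cortical cells) and of some interneurons, had -0.96 in pair 1 and -0.024, 0.11 and -0.17 in the others, and its mean was -0.26 ± 0.48 with pair 1 and -0.028 without it. *Ccn2*, another gene of layer 6b that is not among the 42, was also lowest in pair 1, at -0.65 against 0.27, 0.12 and -0.034. *Sox5*, *Nr4a2*, *Ntsr1*, *Hs3st4* and *Rprm* had means between -0.081 and 0.0024, each smaller than its spread.

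**Figure D3:**
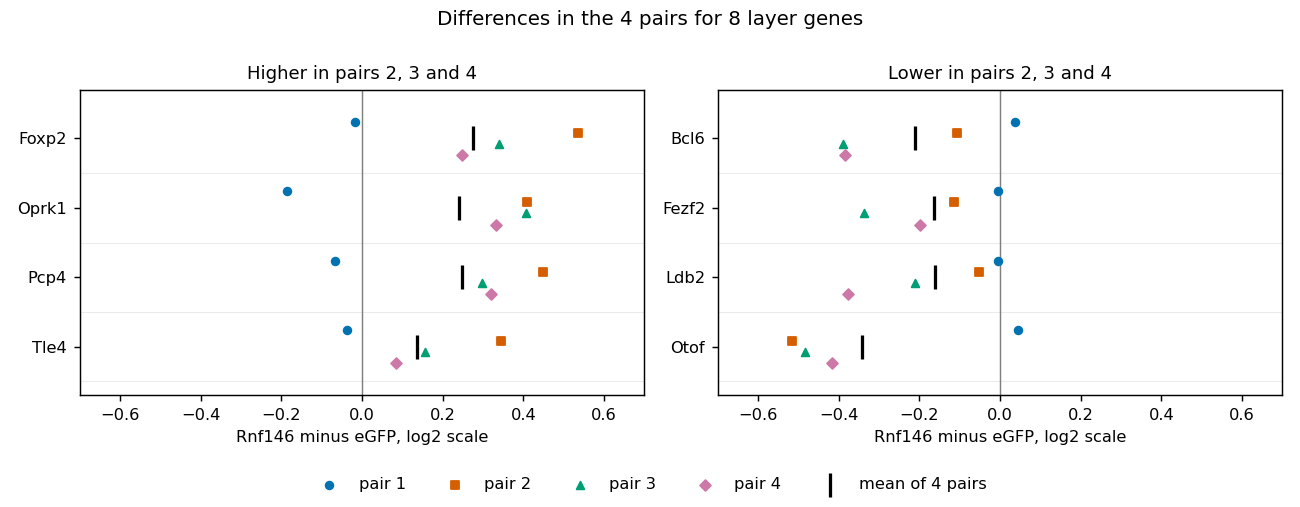
Differences between the libraries of each pair (x axis, log2 scale) for 8 genes chosen after their values were seen (y axis). Coloured symbols are the 4 pairs and black bars their means. *Foxp2*, *Oprk1*, *Pcp4* and *Tle4* lie above 0 and *Bcl6*, *Fezf2*, *Ldb2* and *Otof* below 0 in pairs 2 to 4, while pair 1 lies between -0.19 and 0.043.

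Upper- and deep-layer genes were compared within each pair. The deep-layer average minus the upper-layer average was -0.20, 0.20, 0.013 and 0.010 in pairs 1 to 4. The mean, 0.0061 ± 0.16 (SD, n = 4 pairs), was far smaller than the spread. In pair 1 the upper-layer genes were the higher ones and in pair 2 the deep-layer genes. Layer 6 minus layer 5 gave 0.018 ± 0.17 and changed its sign between pairs too. The broad pyramidal average lay below the average of the 30 layer genes in each pair, by -0.071, -0.23, -0.075 and -0.082 (mean -0.12 ± 0.078). These averages are descriptions and carry no test.

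The median SD of the 4 pair differences was 0.19 for them and 0.098 over all genes. Of the 42 genes, 27 had a mean below 0, 8 (19.05%) were lower in all 4 pairs and 2 (4.76%) were higher in all 4, against 10.2% and 10.4% of all genes. Without the replicate block, which takes the 8 centred values for independent ones, 18 of the 42 genes (42.9%) were called, 13 lower and 5 higher, against 21.5% of all genes.

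A second list of genes of cortical pyramidal neurons, with 33 of 34 measured, was read in the same way. It too was chosen with earlier results of these data known. Its average was -0.16, -0.042, -0.0055 and -0.10 in the 4 pairs, and 22 of 33 genes (66.7%) had a mean below 0, against 49.5% of all genes. Lower in all 4 pairs were 9 (27.3%) and higher in all 4 were 0, against 10.2% and 10.4% of all genes. The test called 2 of the 33 (6.06%, against 1.25% of all genes), both lower. *Nptx1*, the neuronal pentraxin that gathers AMPA receptors at excitatory synapses, had differences of -0.42, -0.35, -0.20 and -0.27 (adjusted p of 0.048 from limma). *Cpne9*, which encodes a copine, had -0.70, -0.52, -0.089 and -0.53 and the lowest mean of the list, -0.46 ± 0.26 (adjusted p of 0.076). The highest mean, 0.18 ± 0.26, belonged to *Foxp1*, which was not called. *Camk2a*, the kinase subunit that is abundant in forebrain excitatory neurons, had -0.15 ± 0.11 and was lower in all 4 pairs without passing the test.

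Markers of other cell types were read in the same libraries. The striatal projection neuron genes, 13 of 13 measured and 0 called, averaged -0.11, 1.20, 0.63 and 0.23 in the 4 pairs (mean 0.48 ± 0.56), with list means of 9.71 to 10.4 in the eGFP libraries and 10.3 to 10.9 in the Rnf146 libraries. The oligodendrocyte genes, 12 of 12 measured and 0 called, averaged -0.13, 0.44, 0.87 and 0.52, with a mean of 0.43 ± 0.41 (11.4 to 11.9 in eGFP and 11.8 to 12.3 in Rnf146 libraries). Of the 10 septal and basal forebrain genes 6 were measured, 5 *Zic* genes and *Trpc4*, and all 6 were called higher, with averages of 0.63, 0.66, 0.32 and 0.56 (9.45 to 9.62 in eGFP and 9.94 to 10.1 in Rnf146 libraries). The 12 interneuron genes averaged 0.075, 0.18, 0.14 and 0.17 (mean 0.14 ± 0.046), and *Gad1*, *Gad2*, *Slc32a1* and *Dlx1* were called higher. The other 8 were not called. Of these, *Nxph1* and *Dlx5* were higher in all 4 pairs (means of 0.21 and 0.19), *Vip*, *Lhx6* and *Adarb2* were lower in all 4 (-0.23, -0.11 and -0.11), and *Npy*, *Sst* and *Pvalb* had no common direction. Over all genes, 0.432% were called lower and 0.818% higher, and 10.2% and 10.4% were lower and higher in all 4 pairs. The lowest mean value in these 4 lists was 8.71, for the striatal gene *Serpina9*. In bulk tissue, fewer cells of a type and less RNA per cell cannot be told apart.

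The order of the pairs can be set beside these lists. *Foxp2*, *Oprk1*, *Pcp4* and *Tle4* were highest in pair 2 and lowest in pair 1, as was the striatal list, and the part of the striatal genes in these differences was not tested. *Slc17a7*, *Slc30a3* and *Neurod2* were lowest in pair 2, then in pair 1, pair 4 and pair 3, and the septal list was highest, and the microglial list lowest, in the same order. These orders were compared after the values were seen, and other lists had other orders. The broad pyramidal list was lowest in pair 2, then in pair 4, pair 3 and pair 1. The second pyramidal list was lowest in pair 1, then in pair 4, pair 2 and pair 3. In pair 1 the striatal and oligodendrocyte lists were below 0, while the septal and interneuron lists were above it, at 0.63 and 0.075. In the same pair *Slc17a7*, *Slc30a3* and *Neurod2* differed by -0.41, -0.36 and -0.38. The part of any of these lists in the differences of the 3 genes was not tested. Astrocyte and endothelial lists averaged -0.033 ± 0.050 and 0.0083 ± 0.048, within the spread between pairs. The microglial list averaged -0.16, -0.23, -0.073 and -0.13 (mean -0.15 ± 0.066), with 11 of 11 means below 0, against 49.5% of all genes. In it 1 gene, *C1qb*, was called lower (9.09%, against 0.432% of all genes).

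**Figure D4:**
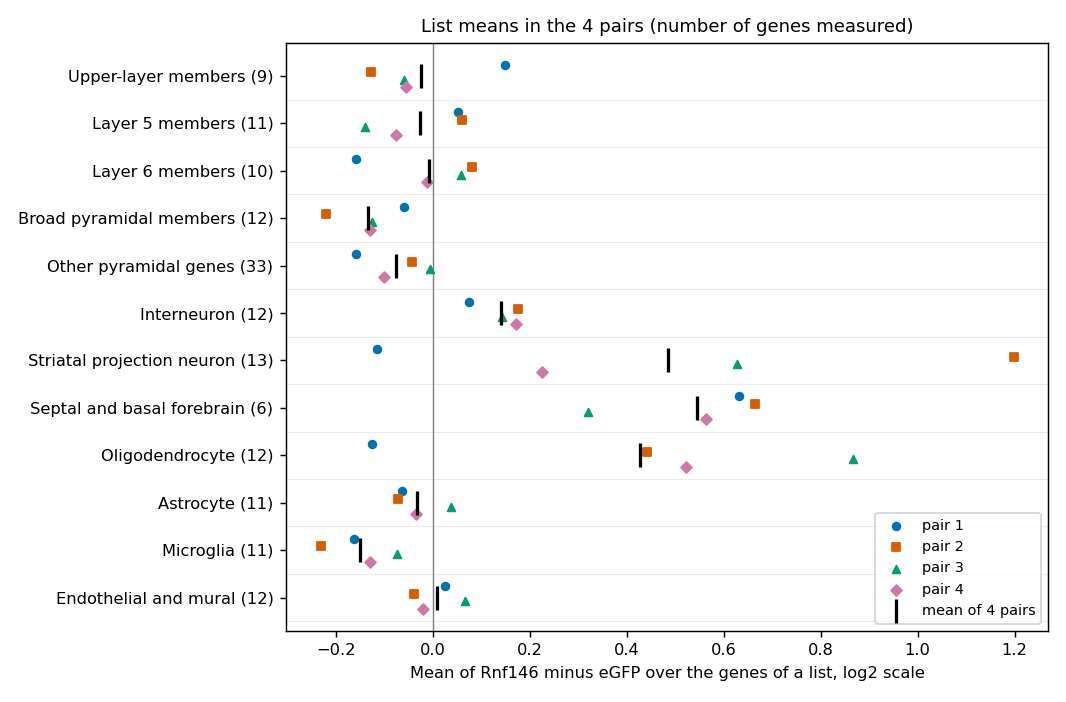
Mean difference between the Rnf146 and eGFP libraries over the genes of a list (x axis, log2 scale) for the layer and broad pyramidal genes and the marker lists (y axis, with the number of genes measured). Coloured symbols are the 4 pairs and black bars their means. The broad pyramidal list lies below 0 in every pair, the layer lists lie on both sides of 0, and the striatal list runs from -0.11 to 1.20.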

How the data were processed

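RNA of the PFC from Rnf146- and eGFP-overexpressing mice was sequenced in 8 libraries. Groups and replicate numbers come from the sample labels. The labels do not state which mouse each library came from or whether tissue was pooled, so p-values rest on the spread of the 4 pair differences of these samples. The authors trimmed reads with Cutadapt, quantified transcripts with Salmon 1.9.0 against GENCODE vM30 (GRCm39) and summarized them to gene symbols, and the submitters' processing notes also name DESeq2. Although named normalized counts, the deposited table holds log2 values that had been centred within same-numbered pairs (largest spread of the pair sums 1.4e-13, which fixes the correlation of same-numbered deviations at -1). The transformation and the centring are not given in the sources used here. The table holds no counts, so the depth of the libraries is unknown and no count-based test was run.

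Differences were fitted across all 15039 genes with limma 3.58.1 in R 4.3.3 (lmFit, eBayes with trend, replicate number as a block, 3 residual degrees of freedom) and adjusted by the Benjamini-Hochberg method, after the script had been tested on simulated data. The pairing comes from the replicate numbers and the centring. Python 3.11.15 with pandas 2.3.3 was used for list averages, promoters (RefSeq, GRCm38.p6) and figures, and gene positions are from GENCODE vM39 (GRCm39). Alternatives were no block, median and quantile scaling, untrended and robust variances, the lowest 25% of genes left out, an adjusted p of 0.05, other list members and each pair left out. Genes with pair values are those called, those with 4 pairs of one direction, the 3 highest and 3 lowest of each list and the Neurod and Slc17a families, and further members were added after their values were seen. The members, the lists and the block were chosen with earlier results of these data known.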

Additional observations from a re-analysis of the deposited data

Results flagged for a closer look

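Among 63 values tested over the 4 pairs (42 genes, the list averages and the contrasts between them), 4 had 1 pair far from the other 3, past Dixon's critical value for the gap over the range. Chance alone puts about 1 in 20 past it. *Oprk1* was at -0.19 in pair 1 against 0.33 to 0.41 in the others. The deep-layer average was at 0.070 in pair 2 against -0.048 to -0.045. The broad pyramidal average minus that of the layer genes was at -0.23 in pair 2 against -0.082 to -0.071. *Neurod6* minus *Neurod2* was at -0.035 in pair 2 against 0.12 to 0.14. Pair 2 was also the pair with the highest striatal list, at 1.20, and the part of those genes in these values was not tested.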

How the results depend on the processing

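The number of the 42 genes called, 4 with the replicate block, was 18 without the block, 0 at an adjusted p of 0.05, and between 0 and 7 with 1 pair left out (0 without pair 2 or pair 4, 7 without pair 1, of which 2, *Whrn* and *Neurod2*, are among the 4). Beside these counts of 0, limma gave 18 of the 42 genes an unadjusted p under 0.05 with all pairs (1870 of all 15039 genes), and 11 and 10 (1232 and 1383 of all genes) without pair 2 and pair 4. Over all genes, 188 were called with the block, 3226 without it, 80 at 0.05 and between 14 and 421 with 1 pair left out. With pairs 2 and 3 both left out, an alternative added after the data were seen, 0 of the 42 (13 with an unadjusted p under 0.05, and 1068 of all genes) and 29 of all genes were called. Other scalings, variance settings and the filter on low values left 3 or 4 of the 42 called, *Slc30a3* being the gene lost. With 1 pair left out, the adjusted p from limma ranged from 0.077 to 0.287 for *Neurod2*, 0.080 to 0.372 for *Slc17a7* and 0.077 to 0.322 for *Slc30a3*. It ranged from 0.056 to 0.294 for *Whrn* and 0.050 to 0.373 for *Cux2*. The directions of these genes could not change, because the 4 pairs of each share a direction. The range was 0.012 to 0.496 for *Otof*, 0.047 to 0.575 for *Foxp2*, 0.024 to 0.717 for *Oprk1* and 0.028 to 0.630 for *Pcp4*, with the direction of each kept. The average of the broad pyramidal genes was -0.23 with members marked as also expressed in other cells left out, and it lay between -0.16 and -0.11 with 1 pair left out. The upper-layer average lay between -0.081 and 0.012, the deep-layer average between -0.046 and -0.0071 and their difference between -0.058 and 0.074 with 1 pair left out. Signs turned for 3 named genes, each with a difference smaller than its spread between pairs. *Lmo3* lay between -0.042 and 0.15 and *Tafa2* between -0.14 and 0.11 with 1 pair left out, and without pairs 2 and 3 *Tafa2* was at 0.12 and *Foxp1* at -0.038. Depth limits are unknown.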
